A study of Homo sapiens with 8 samples.

Results

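The bone morphogenetic protein (BMP) signalling and inhibitor of DNA binding (ID) genes described here were ID1, ID2, ID3, ID4, BMP2, BMP4, BMP7, BMPR1B, SMAD6 and SMAD9. They were the 10 genes, of 37441 Ensembl genes in the deposited table, whose identifiers carry these symbols, and all 10 were kept by the filter on low counts (a sum of 10 or more over the 8 libraries). ID4 had been included because its level was higher in both resistant variants, so its values in the comparisons of resistant with sensitive cells are given as a description and were not tested. RNA was measured in the cell lines NCI-H1581 and NCI-H1703, derived from non-small cell lung cancer and sensitive to inhibition of fibroblast growth factor receptors (FGFR), and in NCI-H1581R and NCI-H1703R, the resistant variants selected from them. The resistant variants had been grown for 4 to 6 months in stepwise increased amounts of CPL304110, an FGFR inhibitor, from 50 nM up to 2.5 µM for NCI-H1581R and 5 µM for NCI-H1703R. A single resistant variant is described per line, each variant was cultured and sampled 2 times, and all cells were harvested 24 h after a change of medium. Whether that medium contained the inhibitor is not given in the sources used here, so a lasting difference between variants and the presence of the inhibitor cannot be told apart. The NCI-H1581 cells grew in DMEM/F12 and the NCI-H1703 cells in RPMI 1640, so cell line and medium cannot be told apart either.

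BMPs are secreted ligands that bring type I and type II receptor kinases together on the cell surface. The type I receptors, among them BMPR1A, BMPR1B and ACVR1, phosphorylate SMAD1, SMAD5 and SMAD9, which join SMAD4, enter the nucleus and bind regulatory DNA. ID1, ID2, ID3 and SMAD6 are well-known direct targets of this signal, and SMAD6 in turn inhibits it. ID proteins have a helix-loop-helix domain without a DNA-binding region, so they pair with E proteins such as TCF3, TCF4 and TCF12 and keep them off DNA. In the developing lung, BMP4 is known for its part in branching of the airways.

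The libraries held between 33800389 and 40031710 counts. Levels are given in CPM, the count divided by library size and scaled to 1e+06, with TMM scaling over all 8 libraries. A count of 3, taken as the lowest level distinguishable from 0, corresponded to 0.0749 to 0.0888 CPM before TMM scaling. As a check of the labelled cell type, EPCAM, a surface protein of epithelial cells, was at 13.1 to 15.9 CPM in NCI-H1581 and at most 0.703 CPM in all NCI-H1703 and NCI-H1703R libraries, while CDH1 stayed at or below 1.32 CPM in every library and VIM, a mesenchymal filament protein, was at 2634 CPM or more. Summed levels of marker lists also differed between sensitive and resistant variants. The summed level of 6 epithelial markers was 77.8 and 78.4 CPM in NCI-H1703 and 10.0 and 11.4 CPM in NCI-H1703R, against 23.3 and 23.2 CPM in NCI-H1581 and 15.7 and 17.1 CPM in NCI-H1581R. Most of the difference in the NCI-H1703 variants was KRT18, and the other 5 markers summed to 13.5 and 12.9 CPM in NCI-H1703 and 7.14 and 8.92 CPM in NCI-H1703R. The sum of 6 lung lineage markers, led by NKX2-1 and TP63 and with SFTPC at 0 counts throughout, was 20.2 and 22.2 CPM in NCI-H1581 and 68.2 and 92.4 CPM in NCI-H1581R, and at most 2.24 CPM in the NCI-H1703 variants. The sum of 7 mesenchymal markers was 9253 and 8356 CPM in NCI-H1581, 5774 and 4948 CPM in NCI-H1581R, 4930 and 4938 CPM in NCI-H1703 and 3716 and 4178 CPM in NCI-H1703R. Most of each sum was VIM, and single members differed from it. Mean COL1A2 was 992 CPM in NCI-H1581R and 1.34 CPM in NCI-H1703, and mean PDGFRA 1.13 and 1256 CPM. Mean LUM fell from 103 to 0.514 CPM in NCI-H1581R, whereas mean COL1A1 rose from 0.976 to 24.1 CPM in NCI-H1703R. The sum of 5 neuroendocrine markers was 142 to 158 CPM in the NCI-H1581 variants and 8.73 to 18.6 CPM in the NCI-H1703 variants. Of 5 endothelial markers, only TEK was above 3 counts in both libraries of NCI-H1581R (10.4 and 14.5 CPM, against 1 count in each NCI-H1581 library), while CDH5 and KDR were at 0 to 2 counts in all libraries. The sum of 6 blood cell markers, almost all of it CD68, ranged from 15.1 to 97.0 CPM, and PTPRC, which marks all white blood cells, had at most 15 counts in a library. Replicate 2 of all 4 variants carried 35 to 47 counts of KRT5, a basal cell keratin, whereas replicate 1 carried 0 or 1. KRT7, one of the 6 epithelial markers, was also higher in replicate 2 of all 4 variants. Its counts were 21 and 169 in NCI-H1581, 22 and 157 in NCI-H1581R, 83 and 169 in NCI-H1703 and 61 and 176 in NCI-H1703R. KRT8 was lower in replicate 2 of all 4, so similar epithelial sums of the 2 replicates do not mean that each marker was similar. The part of these markers in the results below was not tested, and in bulk RNA fewer cells of a kind and less RNA per cell cannot be told apart.

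Promoter windows are shown for 4 of the genes that had higher levels in NCI-H1581R, namely ID1, ID3, ID4 and SMAD6. Each is the 250 bases before the RefSeq transcription start on GRCh38.p14, read on the strand of the gene from 5′ to 3′, and capitals mark matches to the motifs named after them.
ID1, chr20:31605039-31605288, plus strand: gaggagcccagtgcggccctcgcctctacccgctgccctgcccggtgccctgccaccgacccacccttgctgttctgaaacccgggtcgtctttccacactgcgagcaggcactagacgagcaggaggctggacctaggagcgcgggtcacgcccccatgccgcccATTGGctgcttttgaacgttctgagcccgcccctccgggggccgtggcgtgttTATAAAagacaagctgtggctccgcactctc
ID3, chr1:23559502-23559751, minus strand: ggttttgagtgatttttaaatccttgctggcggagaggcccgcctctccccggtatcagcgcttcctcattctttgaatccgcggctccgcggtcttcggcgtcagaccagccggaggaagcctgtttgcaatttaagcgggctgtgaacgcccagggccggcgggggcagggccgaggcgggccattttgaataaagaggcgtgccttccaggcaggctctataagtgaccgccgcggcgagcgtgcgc
ID4, chr6:19837120-19837369, plus strand: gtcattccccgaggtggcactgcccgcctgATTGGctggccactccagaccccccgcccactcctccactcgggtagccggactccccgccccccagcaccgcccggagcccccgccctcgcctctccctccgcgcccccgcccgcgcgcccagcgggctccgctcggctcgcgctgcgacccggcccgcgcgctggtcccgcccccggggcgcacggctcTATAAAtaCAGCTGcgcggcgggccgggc
SMAD6, chr15:66701986-66702235, plus strand: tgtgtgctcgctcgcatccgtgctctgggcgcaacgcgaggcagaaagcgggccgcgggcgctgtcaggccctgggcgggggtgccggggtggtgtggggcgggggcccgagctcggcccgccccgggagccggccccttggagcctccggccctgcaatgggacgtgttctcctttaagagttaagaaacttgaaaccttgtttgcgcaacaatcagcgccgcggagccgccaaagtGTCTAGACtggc

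The motifs searched were the GC-rich SMAD element GGCGCC, the palindromic SMAD element GTCTAGAC, the E-boxes CAGCTG and CACGTG to which basic helix-loop-helix factors bind, the CCAAT box, each on both strands, and the TATA box TATAAA on the strand of the gene. No matches to different motifs overlapped within these windows. The SMAD6 window held GTCTAGAC from -12 to -5 relative to the start, a sequence present in 0.182% of 35116 windows of the same length. The ID4 window held a CCAAT box on the opposite strand from -220 to -216, TATAAA from -29 to -24 and CAGCTG from -21 to -16, and the ID1 window a CCAAT box on the opposite strand from -84 to -80 and TATAAA from -31 to -26. Of all windows, 32.0% held CCAAT, 6.80% TATAAA, 14.0% CAGCTG, 6.34% CACGTG and 16.4% GGCGCC. None of these letters was found in the ID3 window. Base composition was 66% G and C for ID1, 62% for ID3, 78.8% for ID4 and 68% for SMAD6. Such matches describe the letters and not binding, which was not measured. RefSeq windows matched 8 of the 10 genes. The ID2 window lies largely in an exon of an annotated ID2 transcript and is not shown. Windows of BMP4 and SMAD9, also higher in NCI-H1581R, are not shown either. A BMP4 window held GGCGCC from -232 to -227 and another CACGTG from -83 to -78. The SMAD9 window held CACGTG from -178 to -173.

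ID1, ID2 and ID3 were all at higher levels in NCI-H1581R than in NCI-H1581. ID1, whose gene lies on the plus strand of chromosome 20 (31605283 to 31606515, GRCh38), was at 6.85 and 6.14 CPM in the replicates of NCI-H1581 and at 195 and 173 CPM in NCI-H1581R. It was at 273 and 303 CPM in NCI-H1703 and at 227 and 269 CPM in NCI-H1703R. The low values thus belonged to sensitive NCI-H1581, and the libraries of the other 3 variants lay at 173 CPM or above. In NCI-H1581R the level was 28.5-fold higher (log2 fold change 4.84 ± 0.20 (SE), edgeR adjusted p = 5.57e-05). In NCI-H1703R the log2 fold change was -0.19 ± 0.12 (edgeR adjusted p = 0.409).

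ID3 (chromosome 1, 23557926 to 23559501, minus strand) had the same order of levels as ID1. Its replicates were at 8.87 and 7.87 CPM in NCI-H1581, 172 and 145 CPM in NCI-H1581R, 552 and 573 CPM in NCI-H1703 and 437 and 551 CPM in NCI-H1703R. The spread was widest in NCI-H1703R (494 ± 80.6 CPM, SD, n = 2), whose higher replicate lay just under the lower one of NCI-H1703. ID3 was 19.1-fold higher in NCI-H1581R (log2 fold change 4.25 ± 0.20, edgeR adjusted p = 9.59e-05), whereas the log2 fold change in NCI-H1703R was -0.16 ± 0.13 (edgeR adjusted p = 0.534).

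ID2 (chromosome 2, 8678845 to 8684461, plus strand) differed less between the variants. It was at 31.4 and 27.5 CPM in NCI-H1581, 94.9 and 85.6 CPM in NCI-H1581R, 101 and 106 CPM in NCI-H1703 and 116.0 and 115.8 CPM in NCI-H1703R, and no ranges overlapped. The level in NCI-H1581R was 3.09-fold that in NCI-H1581 (log2 fold change 1.63 ± 0.17, edgeR adjusted p = 0.00192). The log2 fold change in NCI-H1703R was 0.19 ± 0.09 (edgeR adjusted p = 0.249). When replicate number entered the fit of the NCI-H1703 variants as a block, both ID1 and ID2 passed the threshold in that line, with edgeR adjusted p = 0.0384 and 0.0549, and with log2 fold changes of -0.19 for ID1 and 0.19 for ID2. ID2 shares 145 of its 2213 exon bases with ID2-AS1 on the opposite strand, which is not a gene of the table, and the strand setting of the counting is not given in the sources used here.

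ID4 (chromosome 6, 19837370 to 19842197, plus strand), an ID factor known from neural progenitors, was the gene chosen for its pattern. It was at 1.13 and 1.42 CPM in NCI-H1581 and at 48.6 and 42.2 CPM in NCI-H1581R. In the other line it was at 7.49 and 9.48 CPM in NCI-H1703 and at 26.0 and 29.1 CPM in NCI-H1703R. The 4 ranges did not overlap, and the order of ID4 levels, NCI-H1581R, NCI-H1703R, NCI-H1703 and NCI-H1581, differed from that of ID1 and ID3. The log2 fold change was 5.15 ± 0.26 in NCI-H1581R (35.4-fold) and 1.73 ± 0.16 in NCI-H1703R, and leaving out any 1 library moved these values within 4.98 to 5.33 and 1.55 to 1.93.

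**Figure D1:**
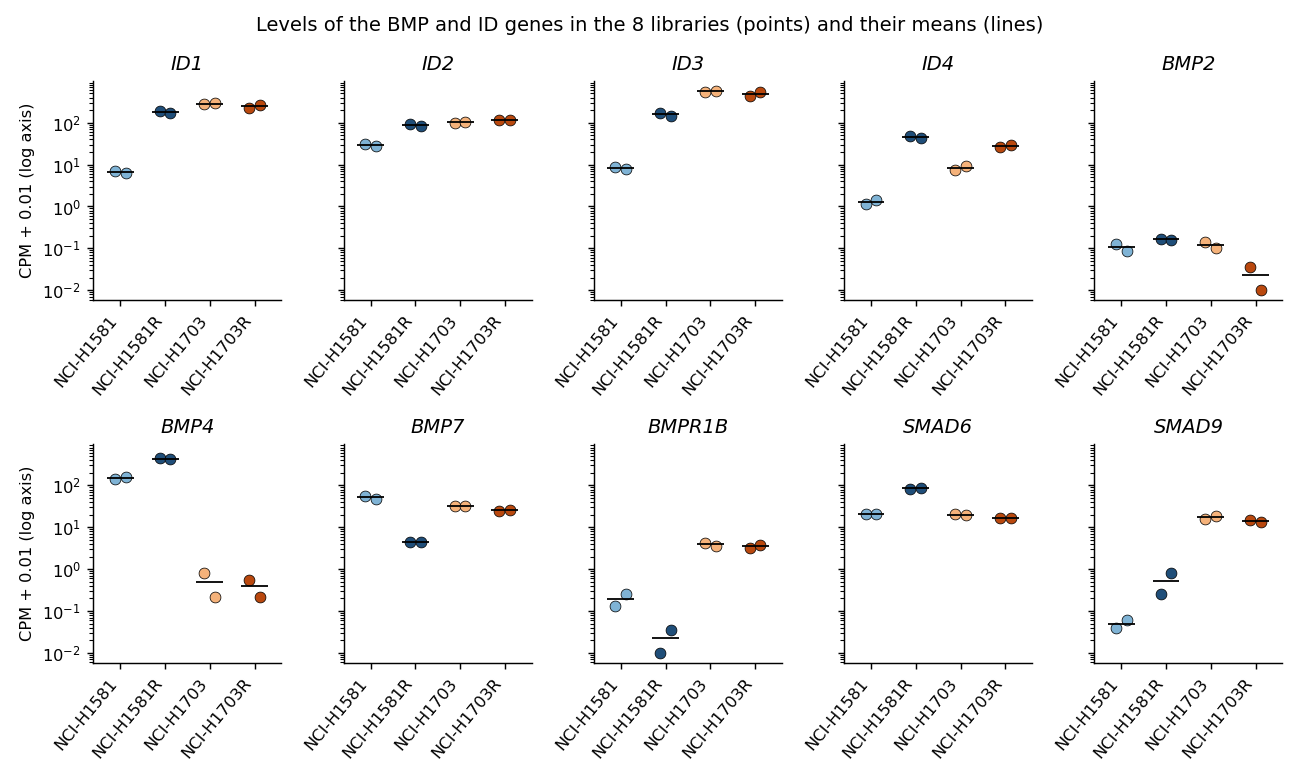
Level of each gene in the 8 libraries, on a log axis of CPM with 0.01 added so that libraries at 0 can be drawn. Points are the 2 replicates of each variant and horizontal lines their means. ID1, ID2 and ID3 are lowest in NCI-H1581, ID4 is higher in both resistant variants, and BMP4 is at 145 CPM or more in the NCI-H1581 variants and below 1 CPM in the NCI-H1703 variants.

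Levels of the 4 ID genes were compared with each other per kilobase of the canonical transcript. On this scale the summed level of ID1 to ID4 was 40.8 and 36.1 CPM per kb in NCI-H1581, 465 and 406 in NCI-H1581R, 938 and 996 in NCI-H1703 and 787 and 950 in NCI-H1703R. The sum in NCI-H1581R thus lay below that of both NCI-H1703 variants in each library. The make-up of the sum differed between the variants. ID2 formed 59.3% and 58.7% of it in NCI-H1581, and ID1 with 42.7% and 43.4% and ID3 with 38.9% and 37.6% formed most of it in NCI-H1581R. In the NCI-H1703 variants ID3 was the main part, at 61.9% and 60.6% in NCI-H1703 and 58.4% and 61.1% in NCI-H1703R. ID4 made up 2.70% and 2.69% of the sum in NCI-H1581R and at most 1.02% in the libraries of the other variants.

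**Figure D2:**
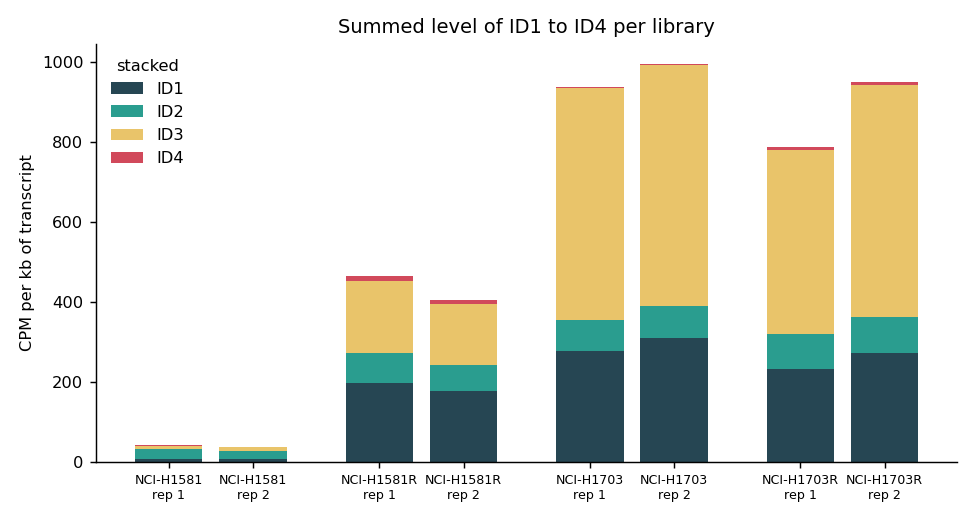
Summed level of ID1 to ID4 in each library, in CPM per kb of canonical transcript, with the part of each gene stacked. The 2 bars of NCI-H1581 reach 40.8 and 36.1, those of NCI-H1581R 465 and 406, and the 4 bars of the NCI-H1703 variants lie between 787 and 996, mostly ID3.

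Among the ligands, BMP4 and BMP7 moved in opposite directions in NCI-H1581R. BMP4 (chromosome 14, 53949736 to 53958761, minus strand) was at 145 and 156 CPM in NCI-H1581 and at 444 and 432 CPM in NCI-H1581R, 2.93-fold higher (log2 fold change 1.55 ± 0.17, edgeR adjusted p = 0.00230). Without replicate 1 of NCI-H1581 the log2 fold change was 1.48 and the adjusted p 0.102. The NCI-H1703 variants hardly contained BMP4 RNA, with 29 and 7 counts in NCI-H1703 and 21 and 8 counts in NCI-H1703R. In both variants the higher count was that of replicate 1, as was the case for EPCAM with 26 and 7 counts in NCI-H1703 and 25 and 3 in NCI-H1703R. The log2 fold change of BMP4 in NCI-H1703R was -0.38 ± 0.81 (edgeR adjusted p = 0.846), and 506 of its 3096 exon bases overlap a long noncoding RNA on the opposite strand that is not a gene of the table.

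BMP7 (chromosome 20, 57168753 to 57266641, minus strand) was at 56.8 and 47.6 CPM in NCI-H1581 and at 4.54 and 4.57 CPM in NCI-H1581R. It fell by 3.50 ± 0.21 on the log2 scale, to a level 11.3-fold lower (edgeR adjusted p = 0.000207). In NCI-H1703 it was at 32.6 and 32.9 CPM and in NCI-H1703R at 24.7 and 25.8 CPM. These ranges did not overlap either, and the log2 fold change of -0.34 ± 0.10 just passed the threshold (edgeR adjusted p = 0.0994). It no longer passed when any 1 of the 4 libraries was left out, with adjusted p from 0.180 to 0.347. BMP2 (chromosome 20, 6767686 to 6780246, plus strand) was close to undetected, with 4 and 3 counts in NCI-H1581, 6 and 6 in NCI-H1581R, 5 and 3 in NCI-H1703 and 1 and 0 in NCI-H1703R. Between NCI-H1703 and NCI-H1703R the ratio of its levels was 8.60 (95% exact interval 1.15 to 382, counting error only), and BMP2 passed the threshold with resistance in neither line (edgeR adjusted p = 0.705 and 0.252).

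The type I receptor BMPR1B (chromosome 4, 94757955 to 95158448, plus strand) was a gene of the NCI-H1703 variants. Its counts were 4 and 10 in NCI-H1581, 0 and 1 in NCI-H1581R, 157 and 118 in NCI-H1703 and 120 and 145 in NCI-H1703R. The ratio of NCI-H1581 to NCI-H1581R was 14.6, with an interval of 2.22 to 618, and the change did not pass the threshold (edgeR adjusted p = 0.219). In NCI-H1703 and NCI-H1703R the levels overlapped, at 3.89 ± 0.506 and 3.50 ± 0.463 CPM (SD, n = 2). The more widely used type I receptor BMPR1A was at 77.7 to 119 CPM in the 8 libraries, and its levels in resistant and sensitive cells overlapped in both lines.

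SMAD6 (chromosome 15, 66702236 to 66782849, plus strand), the inhibitory SMAD, was also higher in NCI-H1581R, but the order of its levels over the 4 variants differed from that of the ID genes. It was at 20.6 and 20.5 CPM in NCI-H1581, 80.5 and 88.7 CPM in NCI-H1581R, 20.6 and 19.4 CPM in NCI-H1703 and 16.8 and 16.5 CPM in NCI-H1703R. The level in NCI-H1581R was 4.15-fold higher than in NCI-H1581 (log2 fold change 2.05 ± 0.17, edgeR adjusted p = 0.000701) and above that of every other library. In NCI-H1703R the log2 fold change was -0.23 ± 0.11 (edgeR adjusted p = 0.281).

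SMAD9 (chromosome 13, 36844831 to 36920887, minus strand), one of the SMADs that carry the BMP signal, had 1 and 2 counts in NCI-H1581 and 9 and 32 counts in NCI-H1581R. It had 581 and 626 counts in NCI-H1703 and 565 and 514 in NCI-H1703R. The ratio of NCI-H1581R to NCI-H1581 was 13.1 (95% exact interval 4.18 to 66.1), and the log2 fold change of 3.61 ± 1.12 passed the threshold (edgeR adjusted p = 0.0850). That call was lost without either replicate of NCI-H1581 (adjusted p = 0.327 and 0.333), without replicate 2 of NCI-H1581R (2.45 on the log2 scale, adjusted p = 0.277), and with DESeq2 (adjusted p = 0.134). In NCI-H1703R the log2 fold change was -0.24 ± 0.15 (edgeR adjusted p = 0.415).

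In NCI-H1581R, 7 of the 9 tested genes passed the threshold, with ID1, ID2, ID3, BMP4, SMAD6 and SMAD9 higher and BMP7 lower. Of all 18203 genes tested in this line, 15.1% passed, 7.63% higher and 7.44% lower. In NCI-H1703R only BMP7 of the 9 passed, against 14.7% of all genes (7.06% higher and 7.67% lower). With replicate number as a block, ID1, ID2 and BMP7 passed there, 3 of the 9, against 34.9% of all genes. The median log2 fold change of the 9 genes was 1.63 in NCI-H1581R, where that of all genes was 0.04, and -0.23 in NCI-H1703R, where that of all genes was 0. ID4 had been chosen from these same comparisons and the other genes were listed with earlier results known, so the counts are a description.

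**Figure D3:**
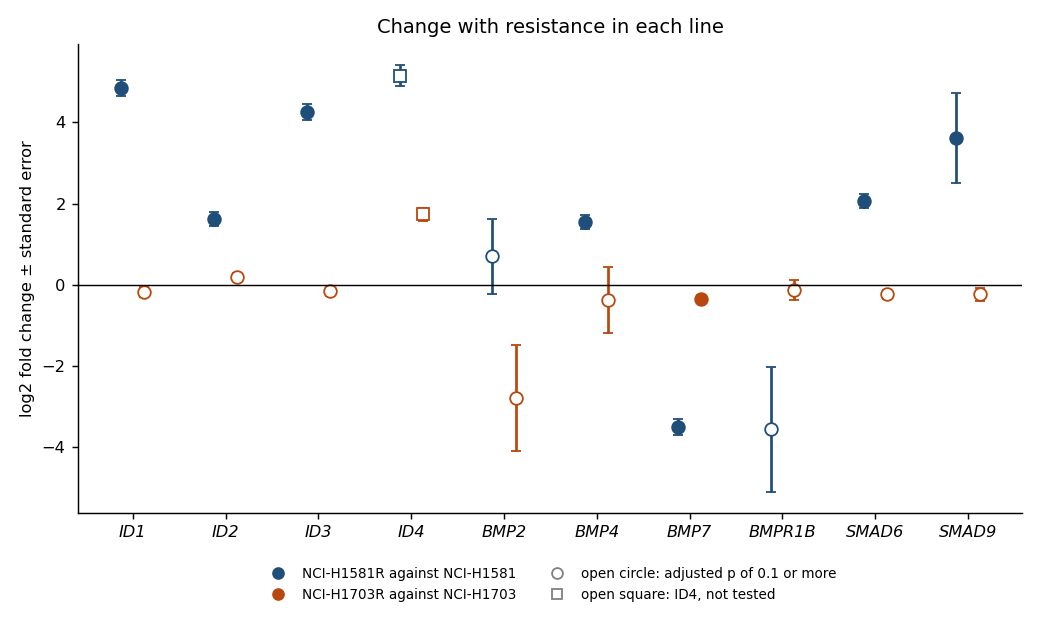
Log2 fold change of each gene in resistant against sensitive cells, with its standard error, for NCI-H1581R in blue and NCI-H1703R in orange. Filled symbols passed an adjusted p of 0.1, open circles did not, and open squares are ID4, which was not tested. In NCI-H1581R the ID genes lie between 1.63 and 5.15, and in NCI-H1703R ID1, ID2 and ID3 lie between -0.19 and 0.19.

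Whether the change with resistance differed between the lines was tested as an interaction term over all 8 libraries. Of the 9 tested genes, 6 differed, 1 upwards and 5 downwards, against 15.4% of all genes (6.93% upwards and 8.47% downwards). On the log2 scale the change in NCI-H1703 minus the change in NCI-H1581 came to -5.04 ± 0.22 for ID1 (edgeR adjusted p = 9.42e-06), -4.43 ± 0.24 for ID3 (2.43e-05) and -1.45 ± 0.17 for ID2 (0.00126). For SMAD6 it was -2.31 ± 0.18 (edgeR adjusted p = 0.000139) and for BMP7, whose fall was smaller in NCI-H1703, it was 3.14 ± 0.21 (6.86e-05). SMAD9 differed by -3.87 ± 1.03 (edgeR adjusted p = 0.0395), and this was lost without replicate 1 or 2 of NCI-H1581 (adjusted p = 0.190 and 0.182) or replicate 2 of NCI-H1581R (0.233). BMP4 differed by -1.95 ± 0.69 and did not pass (edgeR adjusted p = 0.125), except with replicate number as a block within each line (0.0438) and without replicate 2 of NCI-H1703 (0.0711). BMPR1B did not pass either (edgeR adjusted p = 0.277), except with legacy quasi-dispersions (0.0788), nor did BMP2 (0.203). For ID4 the difference of the changes was -3.44 ± 0.30, not tested.

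The sensitive lines differed in most of these genes before any selection. ID1 was 44.5-fold and ID3 67.4-fold higher in NCI-H1703 than in NCI-H1581 (log2 fold change 5.47 ± 0.14 and 6.08 ± 0.12, edgeR adjusted p = 1.34e-07 and 7.08e-08). ID2 was 3.52-fold and ID4 6.55-fold higher (edgeR adjusted p = 8.57e-06 and 0.000221). SMAD9 had 1207 counts in the 2 NCI-H1703 libraries and 3 in those of NCI-H1581, a ratio of 421 (95% exact interval 144 to 2046, edgeR adjusted p = 4.72e-07), and BMPR1B was higher by 4.33 ± 0.52 on the log2 scale (edgeR adjusted p = 0.000259). BMP4 was lower in NCI-H1703 by a log2 fold change of -8.20 ± 0.25 (edgeR adjusted p = 3.02e-07) and BMP7 by -0.67 ± 0.12 (0.00244). SMAD6, with -0.04 ± 0.13 and overlapping replicates, did not pass the threshold (edgeR adjusted p = 0.835), nor did BMP2 (0.851). Thus 8 of 10 passed, 6 higher and 2 lower, where 62.9% of all genes did (32.5% and 30.4%), a background so high that a call between the lines is common.

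Between the resistant variants the differences in the ID genes were small or moderate. ID1 was 1.38-fold and ID2 1.32-fold higher in NCI-H1703R than in NCI-H1581R (0.46 ± 0.17 and 0.40 ± 0.14 on the log2 scale, edgeR adjusted p = 0.0768 and 0.0787). Both calls were lost with the replicate block (adjusted p = 0.232 and 0.238), with RLE normalisation (0.114 and 0.113) and without either replicate of NCI-H1703R, that of ID1 also without replicate 2 of NCI-H1581R (0.124), and that of ID2 also without the filter on low counts (0.101). ID3 was 3.19-fold higher (1.67 ± 0.20, edgeR adjusted p = 0.00212). ID4 was lower in NCI-H1703R, at -0.69 ± 0.16 (edgeR adjusted p = 0.0221), and lost its call without replicate 1 or 2 of NCI-H1703R (0.208 and 0.115).

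The ligands, the receptor and the SMADs also differed between the resistant variants, BMP7 in the opposite direction to that between the sensitive lines. BMP4 was lower in NCI-H1703R by a log2 fold change of -10.11 ± 0.35 (edgeR adjusted p = 3.84e-05) and SMAD6 by -2.31 ± 0.15 (0.000273). BMP7 was higher by 2.50 ± 0.19 (edgeR adjusted p = 0.000396) and SMAD9 by 4.77 ± 0.43 (0.000791). BMPR1B had 265 counts in NCI-H1703R and 1 in NCI-H1581R, a ratio of 269 with an interval of 48.0 to 10684 (edgeR adjusted p = 0.000692), and BMP2 had 1 count against 12 in NCI-H1581R, a ratio in the other direction of 11.8 with an interval of 1.75 to 504 (0.0826). All 10 genes passed, 6 higher and 4 lower, where 52.5% of all genes did (25.9% and 26.7%). The comparisons between the lines and those with resistance share libraries, so they are not independent of each other.

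Beyond these genes, 71 genes of the BMP pathway were listed by role, of which 60 were tested. In NCI-H1581R, 14 were higher and 9 lower, where 7.63% and 7.44% of all genes were. In NCI-H1703R, 4 were higher and 16 lower, where 7.06% and 7.67% of all genes were. Their median log2 fold change was 0.08 in NCI-H1581R and -0.23 in NCI-H1703R, beside 0.04 and 0 for all genes, and their median size of change was 0.90 and 0.43, beside 0.42 and 0.29. In NCI-H1703R fewer of the 60 passed once a library was left out, which leaves 1 library in its variant. The share of all genes passing in such fits is not given, so the loss cannot be set beside that of all genes. With the replicate block 32 passed there, where 34.9% of all genes did.

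Of the 3 other signal-carrying SMADs, SMAD1 changed in NCI-H1581R. It had 14 and 15 counts in NCI-H1581 and 1013 and 800 in NCI-H1581R, and was at 37.7 and 38.7 CPM in NCI-H1703 and 32.8 and 35.6 CPM in NCI-H1703R. The log2 fold change was 5.90 ± 0.36 in NCI-H1581R (edgeR adjusted p = 0.000243) and -0.13 ± 0.10 in NCI-H1703R (0.504), and the changes differed between the lines by -6.05 ± 0.34 (2.95e-05). NCI-H1581 was thus the variant with the lowest levels of both SMAD1 and SMAD9. SMAD5, at 39.9 to 71.7 CPM, and the shared partner SMAD4, at 50.1 to 77.6 CPM, passed the threshold in neither line.

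Among the other ligands 3 of 7 were lower in NCI-H1581R and none higher, beside 7.44% and 7.63% of all genes. They included BMP5 at -1.09 (edgeR adjusted p = 0.0115) and BMP8B at -0.73 (0.0687). The third was BMP6, with 175 and 138 counts in NCI-H1581 and 3 and 2 in NCI-H1581R (-5.96 ± 0.65, edgeR adjusted p = 0.00110), which was also the 1 ligand lower in NCI-H1703R, at -0.95 ± 0.15 (0.0195). That 1 of 7 was 14.3%, near the 14.7% of all genes that passed in NCI-H1703R. Of 10 receptors and co-receptors, 3 were higher and 1 lower in NCI-H1581R, beside 7.63% and 7.44% of all genes. The 3 were the type II receptor ACVR2B with a log2 fold change of 1.12 (edgeR adjusted p = 0.0141), the co-receptor RGMB with 0.93 (0.0352) and NEO1 with 0.54 (0.0899). ENG, the co-receptor endoglin, fell there from 30.4 and 27.6 to 1.38 and 1.45 CPM, a log2 fold change of -4.34 ± 0.25 (edgeR adjusted p = 0.000180). In NCI-H1703R 1 receptor was higher and 3 were lower, beside 7.06% and 7.67% of all genes. RGMB was among the lower ones, at -0.42 (edgeR adjusted p = 0.0650). Type I and type II receptors BMPR1A, BMPR2 and ACVR1 passed in neither line.

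Of 11 intracellular inhibitors, 4 were higher and none lower in NCI-H1581R (7.63% of all genes were higher), namely SMURF2, a ubiquitin ligase, with 1.01 (edgeR adjusted p = 0.0176), the SMAD corepressor SKIL with 2.01 (0.00711), the phosphatase PPM1A with 0.62 (0.0853) and the inhibitory SMAD7 with 2.85 (0.00513). In NCI-H1703R 5 of 11 were lower and none higher (7.67% of all genes were lower), SMAD7 with -0.56 (edgeR adjusted p = 0.0333), SKI with -0.43 (0.0331), SKIL with -0.45 (0.0420), and the phosphatases CTDSP1 with -0.34 (0.0749) and CTDSPL with -0.66 (0.0320). The difference between the lines passed for 5 of the 11, where 15.4% of all genes did, among them SMAD7 at -3.43 ± 0.29 (edgeR adjusted p = 0.000238) and SKIL at -2.48 ± 0.26 (0.000708).

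Of 12 extracellular antagonists, which bind BMPs outside the cell, 1 was higher and 2 lower in NCI-H1581R, beside 7.63% and 7.44% of all genes. TWSG1, a BMP-binding protein that can inhibit or promote signalling, was at 413 and 459 CPM in NCI-H1581 and 51.8 and 37.8 CPM in NCI-H1581R (log2 fold change -3.27 ± 0.22, edgeR adjusted p = 0.000335), and NBL1 changed by -2.60 ± 0.25 (0.00131). In NCI-H1703R 2 were higher and 2 lower, beside 7.06% and 7.67% of all genes. There noggin (NOG) went from 32.2 and 34.8 to 18.7 and 23.1 CPM (-0.65 ± 0.14, edgeR adjusted p = 0.0423), NBL1 changed by -0.51 (0.0664) and CRIM1 by 0.49 (0.0883). NOG was at most 0.399 CPM in the NCI-H1581 variants.

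Of 14 other target genes, 4 were higher and 2 lower in NCI-H1581R, beside 7.63% and 7.44% of all genes. The homeobox gene MSX1 went from 0.890 and 1.57 to 10.9 and 11.7 CPM (log2 fold change 3.17 ± 0.34, edgeR adjusted p = 0.00221) and GATA2 from 11.0 and 12.3 to 37.0 and 47.1 CPM (1.86 ± 0.21, 0.00290), whereas DLX2 changed by -2.39 (0.00388) and ATOH8, with 53 and 40 counts in NCI-H1581 and 5 and 5 in NCI-H1581R, by -3.24 ± 0.71 (0.0331). TBX3 was also higher there, from 19 and 61 to 201 and 314 counts (2.64 ± 0.48, edgeR adjusted p = 0.0188). In NCI-H1703R 1 was higher and 4 lower, beside 7.06% and 7.67% of all genes. Among the lower ones were again ATOH8, at -1.31 ± 0.13 (edgeR adjusted p = 0.00419), and also GATA2 at -0.43 (0.0734). RUNX2 fell from 99 and 103 to 10 and 0 counts (-4.38 ± 0.69, edgeR adjusted p = 0.0191). HAND1, with few counts, fell from 13 and 13 to 0 and 0 (-6.75 ± 1.69, edgeR adjusted p = 0.0857). HEY2 was the 1 higher target in NCI-H1703R and was also higher in NCI-H1581R, below 5 CPM in every library. It went from 4 and 10 to 67 and 91 counts in NCI-H1581R (3.42 ± 0.63, edgeR adjusted p = 0.0181). In NCI-H1703R it went from 28 and 33 to 100 and 121 counts (1.78 ± 0.36, edgeR adjusted p = 0.0373). Among the 3 E proteins, the partners of ID factors, TCF12 was higher in NCI-H1581R at 0.75 (edgeR adjusted p = 0.0534) with 1 other lower, and TCF3 was lower in NCI-H1703R at -0.34 (0.0799). Of all genes, 15.1% passed in NCI-H1581R and 14.7% in NCI-H1703R.

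**Figure D4:**
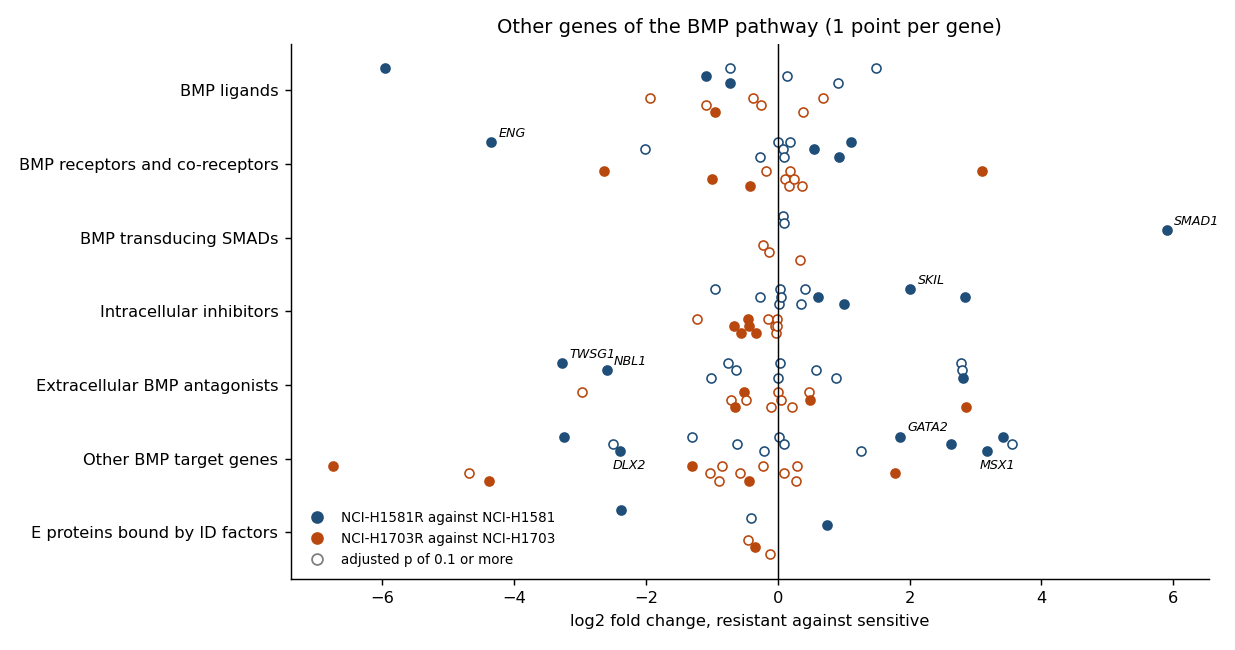
Log2 fold change in resistant against sensitive cells of the 60 tested BMP pathway genes outside the 10, grouped by role, with 1 point per gene and line (NCI-H1581R in blue, NCI-H1703R in orange, small vertical offsets for legibility). Filled points passed an adjusted p of 0.1. Labels mark called genes with a mean of at least 5 CPM in that line and a change above 1.8 in size, such as SMAD1 at 5.90 and ENG at -4.34. BMP6, SMAD7, ATOH8, TBX3 and HEY2 were below that mean in the NCI-H1581 variants and carry no label, nor do RUNX2 and HAND1, which were below it in the NCI-H1703 variants.

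The genes with the levels most like those of ID1 over the 8 libraries, by Pearson correlation of log2(CPM + 1) among 10793 genes with a mean of at least 5 CPM, were SMAD1 (r = 0.999), GALNT7 (0.998) and PERP (0.997). Those most like ID4 were ARHGEF3 (r = 0.991), PIP4K2A (0.988) and KRCC1 (0.986). Within the gene set, r with ID1 was 0.991 for ID2, 0.980 for ID3, 0.813 for ID4, 0.724 for SMAD9, 0.168 for SMAD6, -0.490 for BMP7 and -0.541 for BMP4, while BMP2 and BMPR1B were below the 5 CPM limit. The 8 libraries are 4 variants in pairs, so these values describe the spacing of 4 levels and carry no test. A high r does not mean the same order, since ID2 was highest in NCI-H1703R and ID1 in NCI-H1703.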

How the data were processed

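The sequenced samples were 8 RNA libraries, 2 for each of NCI-H1581, NCI-H1581R, NCI-H1703 and NCI-H1703R. Paired reads were quantified by the authors with Salmon on GRCh38 and imported per gene with tximport. The table they deposited holds estimated counts, in whole numbers and without normalisation. Cutadapt is also named in the submitters' processing notes. Tool versions, the transcript annotation and the strand setting are not given in the sources used here. Samples were grouped by the labels of the libraries. Symbols, positions and transcript lengths came from GENCODE v44 (GRCh38) and promoter windows from RefSeq (GRCh38.p14). All windows of the 10 genes were identical to the GRCh38 genome.

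Counts were tested with edgeR 4.0.16 in R 4.3.3 (TMM normalisation, quasi-likelihood test, two-sided, Benjamini-Hochberg adjustment over the 18203 genes whose counts summed to 10 or more), and a gene was called at an adjusted p under 0.1. Each comparison used its own 4 libraries, and the interaction all 8. The standard error was the size of the log2 fold change divided by the square root of F. Intervals of ratios are exact conditional intervals, in which counting error alone enters. Alternatives were DESeq2 1.42.0, RLE normalisation, no filter, at least 10 counts in every library, the replicate block, 1 fit of all 8 libraries, an adjusted p of 0.05 and leaving out each library, and, added after seeing the data, legacy quasi-dispersions and a crossed pairing.

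The labels' protocol has the second replicate made by repeating the culture and harvest, and same-numbered replicates of a line deviated together (r = 0.215 for NCI-H1581 with NCI-H1581R and 0.458 for NCI-H1703 with NCI-H1703R over 11174 genes), whereas across the lines r ranged from -0.479 to 0.018. Replicates of each variant differed beyond sampling noise (chi-square divided by its degrees of freedom 24.6 to 103). No independently selected cultures are described, so p-values measure the spread between repeated cultures and not between independently selected ones.

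The 10 genes, the pathway lists and the tests were chosen with earlier results of these data known. Genes named in the text were the 10 genes, listed pathway genes called in a line without overlap of the replicates whose mean in that line reached 5 CPM, and the 3 genes most like ID1 and ID4. BMPR1A, BMPR2, ACVR1, SMAD5 and SMAD4 were named in addition, after their values were seen, as were HEY2, RUNX2, HAND1 and TBX3. HEY2, RUNX2 and HAND1 were below 5 CPM in every library, and TBX3 had a mean below 5 CPM in the NCI-H1581 variants. The lists hold BMP ligands, receptors and co-receptors, signal-carrying SMADs, intracellular inhibitors, extracellular antagonists, other BMP targets and E proteins.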

Additional observations from a re-analysis of the deposited data

Results flagged for a closer look

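For 6 genes the change with resistance differed between the lines in the interaction test of edgeR. On the log2 scale, the change in NCI-H1703 minus that in NCI-H1581 was -5.04 for ID1, -1.45 for ID2, -4.43 for ID3, 3.14 for BMP7, -2.31 for SMAD6 and -3.87 for SMAD9. In the main fits ID1, ID2, ID3, SMAD6 and SMAD9 were higher in NCI-H1581R and not called in NCI-H1703R, and BMP7 fell more in NCI-H1581R. With replicate number as a block, ID1 and ID2 passed the threshold in NCI-H1703R, with small changes of opposite sign, where 34.9% of all genes passed. The value of SMAD9 rests on 3 counts in NCI-H1581.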

How the results depend on the processing

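In NCI-H1581R the count of 7 called genes ranged from 5 to 7 when a library was left out, and that of the other pathway genes, 23, from 13 to 25. In NCI-H1703R the 1 called gene, BMP7, became 0 with legacy quasi-dispersions, no filter, 1 fit of all 8 libraries, an adjusted p of 0.05 or any library left out, and 3 with the replicate block. The 20 other pathway genes there became 13 with no filter, 32 with the replicate block, 9 at an adjusted p of 0.05 and 0 to 10 with a library left out. Requiring at least 10 counts in every library, which removes genes near 0 in 1 group, left 5 of 8 calls between the sensitive lines, and 6 of 10 and 25 of 39 between the resistant variants, where leaving out a library gave 6 to 9 of the 10.

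Reversed in sign, all of them not called in NCI-H1703R, were ID3 (0.0075 without replicate 1 of NCI-H1703R, range over the libraries left out -0.34 to 0.0075), BMP4 (0.87 without replicate 1 of NCI-H1703 and 0.15 without replicate 2 of NCI-H1703R, range -1.22 to 0.87) and BMPR1B (0.0001 without replicate 1 of NCI-H1703 and 0.0106 without replicate 1 of NCI-H1703R, range -0.27 to 0.0106). The cause was not tested. Pairing the resistant variants by crossed numbers gave 10 calls among the 10 genes and 40 among the other pathway genes. Of the 10 genes, the replicate block changed no other call than those given in the report. With 1 library left out, its variant has a single library, assumed to vary like the other. The share of all genes passing in such fits is not given, so those counts cannot be set beside it. BMP2, and SMAD9 and BMPR1B in the NCI-H1581 variants, had too few counts for more than an order of magnitude.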
